A study of Drosophila melanogaster with 2 samples.

Results

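Translation factors of the eIF and eEF families are the soluble proteins that start and lengthen polypeptide chains on the cytoplasmic ribosome. Their genes were taken as every protein-coding gene on the 6 main chromosome arms of Drosophila melanogaster whose symbol starts with eIF or eEF. The rule gave 52 genes of 13945. The data were chromatin immunoprecipitation sequencing (ChIP-seq) of whole transgenic embryos aged 0 to 18 hours that carried a fusion of Lame duck (lmd) to eGFP, pulled down with an anti-GFP antibody after sonication to fragments of 200 to 800 bp. Lame duck, a transcription factor with Gli-type zinc fingers, is needed for fusion-competent myoblasts in the embryonic mesoderm. There was 1 group with 2 biological replicates, numbered 1 and 2, so binding was described and no conditions were compared. Whole embryos mix all tissues, so the lists do not say in which cells a site was bound, and the tagged protein stood for the native factor. The labels do not name the promoter that drives the fusion.

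The study's positions were called peaks, regions where the pulled-down DNA was enriched, each with a summit (the base of highest enrichment) and a signal value given by the authors' peak caller. The conservative set held 4998 peaks on the main arms, chosen by the irreproducible discovery rate (IDR), which scores how well a peak keeps its rank between replicates. The thresholded sets of replicates 1 and 2 held 3929 and 5544 peaks, and the ranked lists before thresholding held 112073 and 89892. Read depth was unknown, and signal values were used only to describe peaks and rank them within a list. Genes and peaks are not replicates, so the intervals below cover counting error only.

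In initiation, eIF2 carries the initiator tRNA to the small ribosomal subunit, eIF2B reloads eIF2 with GTP, the many-subunit eIF3 holds the complex together, and the eIF4 proteins bring the mRNA by its cap. eIF1 and eIF1A govern the scanning for a start codon, and eIF5B lets the large subunit join. In elongation, eEF1alpha brings each aminoacyl-tRNA, the eEF1beta, eEF1gamma and eEF1delta proteins recharge it, and eEF2 moves the ribosome along the mRNA. Most of these genes are expressed in every growing cell.

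A summit of the conservative set lay within 500 bp of an own transcription start site (TSS) in 11 of the 52 genes, 21.2% (Wilson 95% interval 12.2% to 34.0%). The background was 17.2% of all protein-coding genes, which is within that interval, so the factor genes as a group did not stand apart from other genes. The 11 were eIF6, eIF3c, eEF1gamma, eIF5B, eIF3h, eIF1, eEF1alpha1, eIF3m, eIF3a, eEF2 and eIF2Bbeta. Within the locus, meaning the gene body plus 2 kb on either side, 19 of the 52 had a summit, 36.5% (24.8% to 50.1%), against 33.5% of all genes. By role, promoter summits were found in 2 of 12 genes of initiator tRNA delivery, 4 of 16 eIF3 genes, 0 of 13 genes of cap and mRNA recruitment, 2 of 3 genes of scanning and subunit joining, and 3 of 8 elongation genes. The 0 of 13 allows a share of up to 22.8% by the Wilson interval, so it too includes the background. The interval for scanning and subunit joining, 20.8% to 93.9%, lies above the 17.2%, but it rests on 3 genes. Among them, eIF1 was counted by summits that were also within 500 bp of the TSS of RpL28, a ribosomal protein gene. The stronger of these was nearer to RpL28. The intervals of the other roles include the background. eIF5B is listed under initiator tRNA delivery although it acts at subunit joining. With it moved, a grouping added after the values were seen, the counts were 1 of 11 and 3 of 4.

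**Figure D1:**
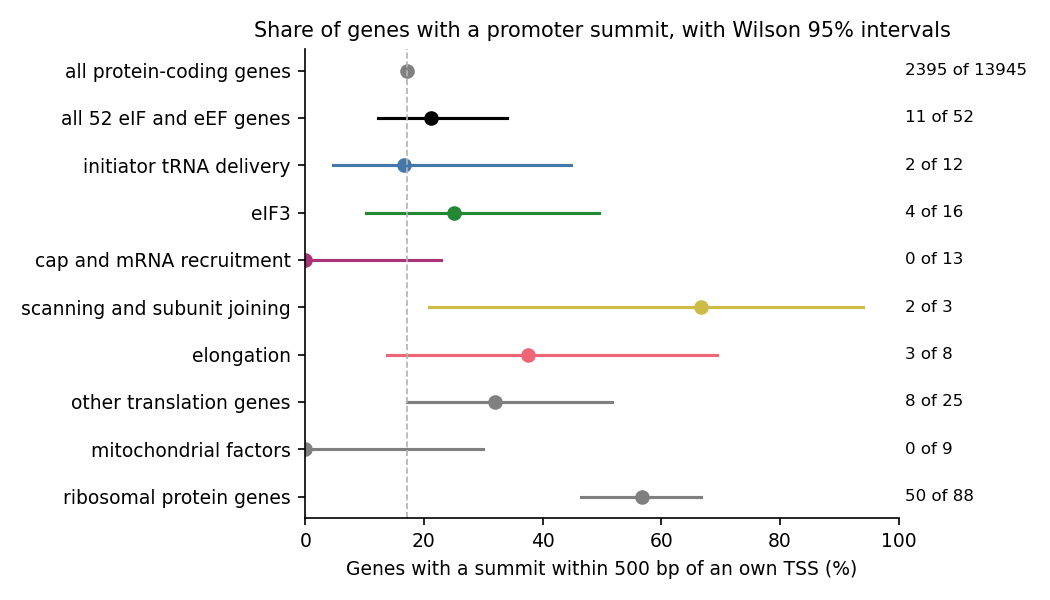
Percent of genes with a conservative-set summit within 500 bp of an own TSS (x axis) for each list of genes (y axis), with points at the share and lines for Wilson 95% intervals, and the dashed line at the 17.2% of all protein-coding genes. The interval of the 52 eIF and eEF genes, 12.2% to 34.0%, includes the dashed line, and that of the 88 ribosomal protein genes, 46.4% to 66.7%, lies above it.

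The sequences under 3 of the summits held the word TATCGATA, the full DNA replication-related element (DRE) bound by the core promoter factor Dref, within 100 bp. They are shown because the word was at a larger share of the factor summits than of other promoter summits, and they are set beside 2 promoters without it in that window. Each is from the Release 6 assembly, read 5′ to 3′ on the gene's strand, with the word or its core ATCGAT in capitals, or, where neither is present, with the summit base alone in capitals. The stretch of eEF1gamma is chr3R:29220080-29220200 on the plus strand, that of eIF1 is chr3L:3222966-3223086 on the plus strand, and that of eIF3a is chr3R:4433885-4433983 on the minus strand. The stretch of eIF2Bbeta is chrX:2704437-2704557 on the plus strand, and that of eIF4EHP is chr3R:24109150-24109270 on the minus strand.
eEF1gamma: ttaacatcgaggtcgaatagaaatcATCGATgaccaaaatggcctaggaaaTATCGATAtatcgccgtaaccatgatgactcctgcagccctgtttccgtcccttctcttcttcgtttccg
eIF1: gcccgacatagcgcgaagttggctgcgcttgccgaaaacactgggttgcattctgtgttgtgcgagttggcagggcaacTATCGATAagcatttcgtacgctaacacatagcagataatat
eIF3a: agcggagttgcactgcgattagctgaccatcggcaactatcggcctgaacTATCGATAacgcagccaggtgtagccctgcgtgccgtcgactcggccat
eIF2Bbeta: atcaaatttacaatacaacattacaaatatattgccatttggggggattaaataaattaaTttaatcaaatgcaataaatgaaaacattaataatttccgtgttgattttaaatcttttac
eIF4EHP: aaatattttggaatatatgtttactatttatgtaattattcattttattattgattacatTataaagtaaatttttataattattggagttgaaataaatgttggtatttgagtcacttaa

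The word lay 6 bp from the eEF1gamma summit, 22 bp from the stronger eIF1 summit and 16 bp from the eIF3a summit. Of the 12 summits of the 11 genes (eIF1 had a pair), 3 held it within 100 bp, 25.0%, against a background of 5.50% of the 1910 promoter summits of all genes. For eIF1 and eIF3a the TSS of another gene was nearer to that summit, and among the 10 summits nearest to the factor gene 1 held the word, that of eEF1gamma. Within 250 bp the word lay near 7 of the 12, 58.3%, against 212 of the 1910, 11.1%. The word was 103 bp from the eIF6 summit, 186 bp from that of eIF3c and 105 bp from that of eIF2Bbeta, and both eIF1 summits reached the same copy of it. The core ATCGAT was within 100 bp of 4 summits, 33.3%, against 13.4%, with eEF2 added. A word match is a description and not a bound site, and 12 summits in neighbouring places are few.

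The word also stood near the start sites of factor genes that had no summit. It lay within 250 bp of a TSS in 15 of the 52 genes, 28.8%, against 1466 of all 13945, 10.5%. Of the 11 genes with a promoter summit 5 had it, and of the 41 without one 10 had it, 24.4%. Among all genes the shares were 14.3% with a summit and 9.72% without. The factor genes held the word in a larger share than genes at large on both sides of the binding call. Its part in the word counts at summits was not tested.

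The other words searched, on both strands and within 100 bp of the summit, were no more common at the factor genes. The sites M1BP (GGTCACACT), E-box (CAGCTG), Gli type (CCACCCA) and Zic type (CCCGCTG) were at 0 of the 12 summits, against 2.04%, 10.2%, 2.04% and 1.20% of all promoter summits. GAGAG, the core of GAGA factor sites, was at 2 of 12, those of eIF3c and eIF3m, 16.7% against 19.7%. TATAAA was at 4 of 12, 33.3% against 38.5%. The word ATCGAT lies inside TATCGATA, so those counts overlap. The sequence around the factor summits had a median GC content of 40.8% within 100 bp, against 33.8% over all promoter summits, and ranged from 26.9% at the weaker eIF1 summit to 48.8% at eIF3a.

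Among genes of scanning and subunit joining, eIF6 had the strongest factor summit. eIF6 binds the large ribosomal subunit and keeps it from joining the small subunit too early. Its peak at chr2R:23850236-23850583 had a signal of 2365, rank 16 of 4998, with the summit 110 bp upstream of the TSS of this minus-strand gene. In replicate 1 its signal was 679.7, rank 43, and in replicate 2 it was 1697, rank 11. It was near the top of both lists, and its signal in the conservative set was well above that of the next factor gene, eIF3c.

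eIF1, the small factor that guards start codon choice, had a peak at chr3L:3222928-3223099 with a signal of 290.3, rank 1152. Its signal was 115 in replicate 1, rank 1358, and 165 in replicate 2, rank 1283. The summit was 315 bp upstream of the eIF1 TSS but 66 bp from that of RpL28, a ribosomal protein gene, so the site cannot be assigned to eIF1 by position. A weaker summit 114 bp upstream of eIF1 had a signal of 61.2, rank 4786. The strongest overlapping peaks of the replicate 1 and 2 lists had their summits 203 and 187 bp away, at the stronger site. Weaker overlapping replicate peaks were not looked at. eIF1A, the partner of eIF1 in scanning, had no summit in the conservative set.

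In initiator tRNA delivery, eIF5B and eIF2Bbeta had promoter summits, with very different signals. eIF5B, a GTPase that acts in subunit joining, had a signal of 347, rank 874, at chr3L:3460600-3460867, 127 bp upstream of the nearest TSS and inside the 5′ UTR of a longer transcript. Its signals were 169 in replicate 1, rank 743, and 186 in replicate 2, rank 1055. It ranked similarly high in both replicates. eIF2Bbeta, a regulatory subunit of the exchange factor eIF2B, had a signal of 62.5, rank 4782, at chrX:2704315-2704678. Its signals were 36.9 in replicate 1, rank 5923, and 36.8 in replicate 2, rank 6786. It was in neither replicate's thresholded set, nor in the wider joint set, so among the thresholded sets it was called in the conservative set alone.

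The eIF2Bbeta locus also held the strongest summit in any of the loci. That peak, chrX:2703687-2704088, had a signal of 4195, rank 2, with its summit 38 bp from the TSS of Ugalt, which encodes a UDP-galactose transporter, and 681 bp from that of eIF2Bbeta. The eIF2 subunit genes eIF2alpha, eIF2beta and eIF2gamma had no promoter summit in the conservative set. The locus of eIF2beta held a peak with a signal of 606, at the start sites of ver and Gcn5.

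Of the 16 eIF3 genes, eIF3c, eIF3h, eIF3m and eIF3a had promoter summits. eIF3a and eIF3c are the large core subunits, and eIF3h and eIF3m are further subunits of the complex. eIF3c had the strongest, with a signal of 413, rank 671, and the summit 31 bp upstream of its TSS at chr2R:17665529-17665757. Its signals were 136 in replicate 1, rank 1062, and 273 in replicate 2, rank 579. eIF3h had a signal of 333, rank 930, with 109.6 in replicate 1, rank 1447, and 224 in replicate 2, rank 803. Its summit at chr2L:5052345-5052585 was 310 bp downstream of the TSS, in an intron, and the TSS of senju was also within 500 bp.

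eIF3m had a signal of 154, rank 2609, at chr2R:14164564-14164927, with 52.3 in replicate 1, rank 3611, and 103 in replicate 2, rank 2327. The summit was 79 bp downstream of its TSS, in the 5′ UTR, and CG8323 shared the promoter. eIF3a had a signal of 128, rank 3120, at chr3R:4433763-4434126, with 38.4 in replicate 1, rank 5495, and 94.0 in replicate 2, rank 2584. Only the thresholded set of replicate 2 held it. Its summit was 50 bp upstream of the eIF3a TSS and 20 bp from that of CG1074. The remaining eIF3 genes had no promoter summit, although eIF3d1 and eIF3g1 had peaks with signals of 604 and 294 in their loci, at the start sites of GILT2 and Smyd3.

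In elongation, eEF1gamma, eEF1alpha1 and eEF2 had promoter summits. eEF1gamma, a subunit of the exchange factor for eEF1alpha, had a signal of 405, rank 688, at chr3R:29220028-29220243, 32 bp upstream of its TSS. Its signals were 133 in replicate 1, rank 1096, and 271 in replicate 2, rank 586. These values and this position were close to those of eIF3c. eEF1alpha1, a GTPase that brings aminoacyl-tRNA to the ribosome, had a signal of 213, rank 1763, at chr2R:11891861-11892224. Its signals were 59.9 in replicate 1, rank 3105, and 153 in replicate 2, rank 1430. The gene has 4 start sites, and the summit was 79 bp upstream of the nearest, in an intron of a longer transcript. A further peak, with a signal of 343, had its summit 1467 bp from a TSS of the gene and 1311 bp from that of ERp60.

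eEF2, the translocation GTPase, had a signal of 95.2, rank 4001, at chr2L:21681907-21682270, with the summit 27 bp downstream of the TSS in the 5′ UTR. Its signals were 32.7 in replicate 1, rank 7774, and 66.5 in replicate 2, rank 3747. It passed the threshold in replicate 2 and not in replicate 1. eEF1alpha2, eEF1beta, eEF1delta, eEF5 and eEFSec, the factor for selenocysteine, had no summit in the conservative set.

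**Figure D2:**
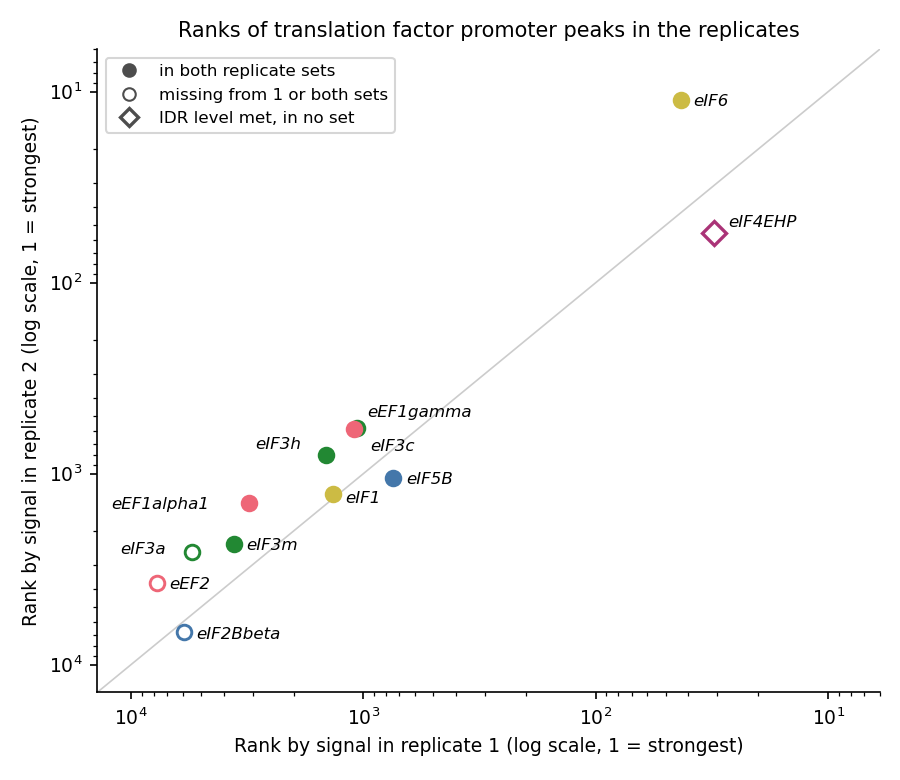
Rank by signal of the factor promoter peaks in the ranked lists of replicate 1 (x axis) and replicate 2 (y axis), without the weaker eIF1 peak. Both axes are on log scales with the strongest at the top right, and the line marks equal ranks. eIF6 stands apart at ranks 43 and 11 beside eIF4EHP at 31 and 55, while eEF2 lies at ranks 7774 and 3747.

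Over the 12 summits, 9 overlapped a peak of the replicate 1 set and 11 a peak of the replicate 2 set. Both sets held 9 of 12, 75.0%, against a background of 70.3% of all promoter summits, so overlap with the replicates was near that of other promoters. For the weaker eIF1 summit, the strongest overlapping replicate peaks were those of its neighbour. The 3 summits missing from the replicate 1 set were those of eIF3a, eEF2 and eIF2Bbeta. Signals ran from 61.2 to 2365 with a median of 252, against 197 over all promoter summits. Signals at or above 273, the upper quartile of all 4998, were found at 6 of the 12 and at 34.4% of promoter summits of all genes.

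The summits, by rule within 500 bp of an own TSS, were 9 upstream and 3 downstream. This split was not computed for all promoter summits. The median distance to the factor gene's own TSS was 79.0 bp, and 10 of the 12 lay 27 to 127 bp from it. Over all promoter summits the median was 140.5 bp, but measured to the nearest TSS of any gene. Another gene's TSS lay within 500 bp of 5 of the 12, 41.7%, against a background of 37.0%. For eIF3a and the stronger eIF1 summit that other TSS was the nearer, so 10 of the 12 were nearest to the factor gene. By its nearest summit, the gene just inside the limit of 500 bp was eIF3h at 310 bp, and just outside were eIF4G2 at 1075 bp, eIF3d1 at 1312 bp and eIF3g1 at 1354 bp. The median distance from a factor gene's TSS to the nearest conservative summit was 8972 bp, against 7262 bp for all genes.

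**Figure D3:**
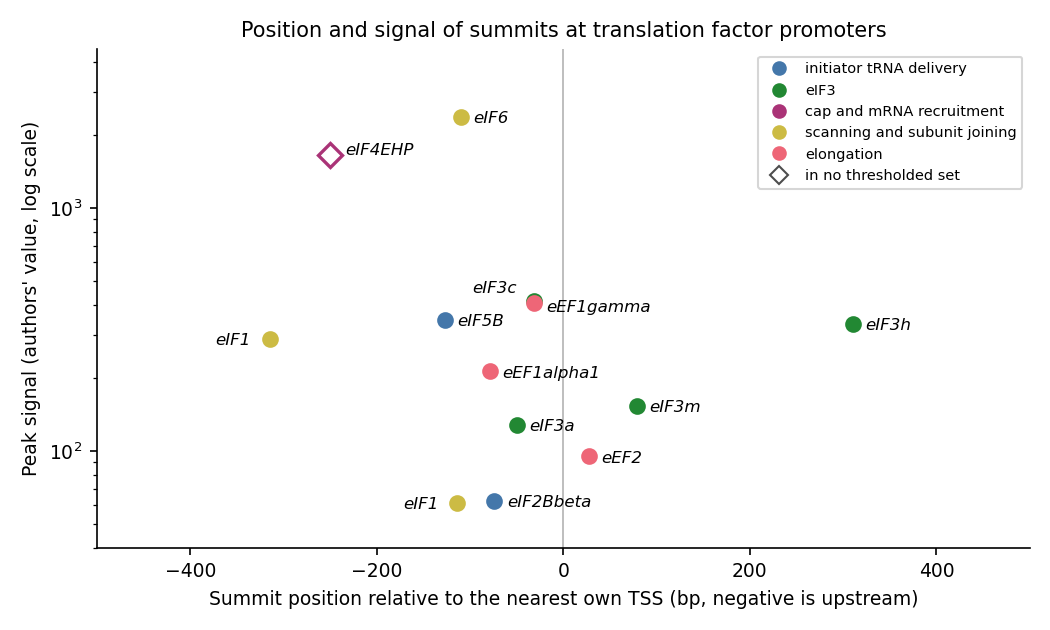
Position of each factor promoter summit relative to the nearest own TSS in bp (x axis, negative upstream) against the authors' signal on a log scale (y axis), coloured by role, with an open diamond for the eIF4EHP peak that is in no thresholded set. Of the 12 filled points 9 lie upstream, 10 are within 127 bp of the TSS, and eIF1 at 315 bp and eIF3h at 310 bp lie farthest out.

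No gene of cap and mRNA recruitment had a promoter summit in the conservative set, but the joint ranked list held a strong peak at eIF4EHP. This gene encodes a cap-binding protein related to eIF4E that does not bind eIF4G and represses translation of its target mRNAs, caudal among them in the Drosophila embryo. The peak, chr3R:24108984-24109404, had a signal of 1646, rank 47, and a −log10 IDR of 5, the cap of the scale. Its signal was 723 in replicate 1, rank 31, and 931 in replicate 2, rank 55. Its summit was 250 bp upstream of the eIF4EHP TSS and 126 bp from that of CG18428. It was in the upper ranks of all 3 ranked lists and in none of the 4 thresholded sets.

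It was not alone in this. Of 5094 main-arm peaks of the joint ranked list with −log10 IDR of 2 or more, the level that all conservative peaks met, 96 were not in the conservative set. Of these 64 were on 3R and 20 on 2L, where the conservative set of 4998 held 1117 and 897. Their median signal was 193, against 160.0 in the conservative set. Their summits lay at the promoters of 42 genes, and eIF4EHP was the factor gene among them. Some of the 42 already had a conservative promoter summit, as the genes with one rose from 2395 to 2435. Counted with them, 12 of the 52 genes had a promoter summit, 23.1%, against 17.5% of all genes. The cause of the absence was not tested.

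**Figure D4:**
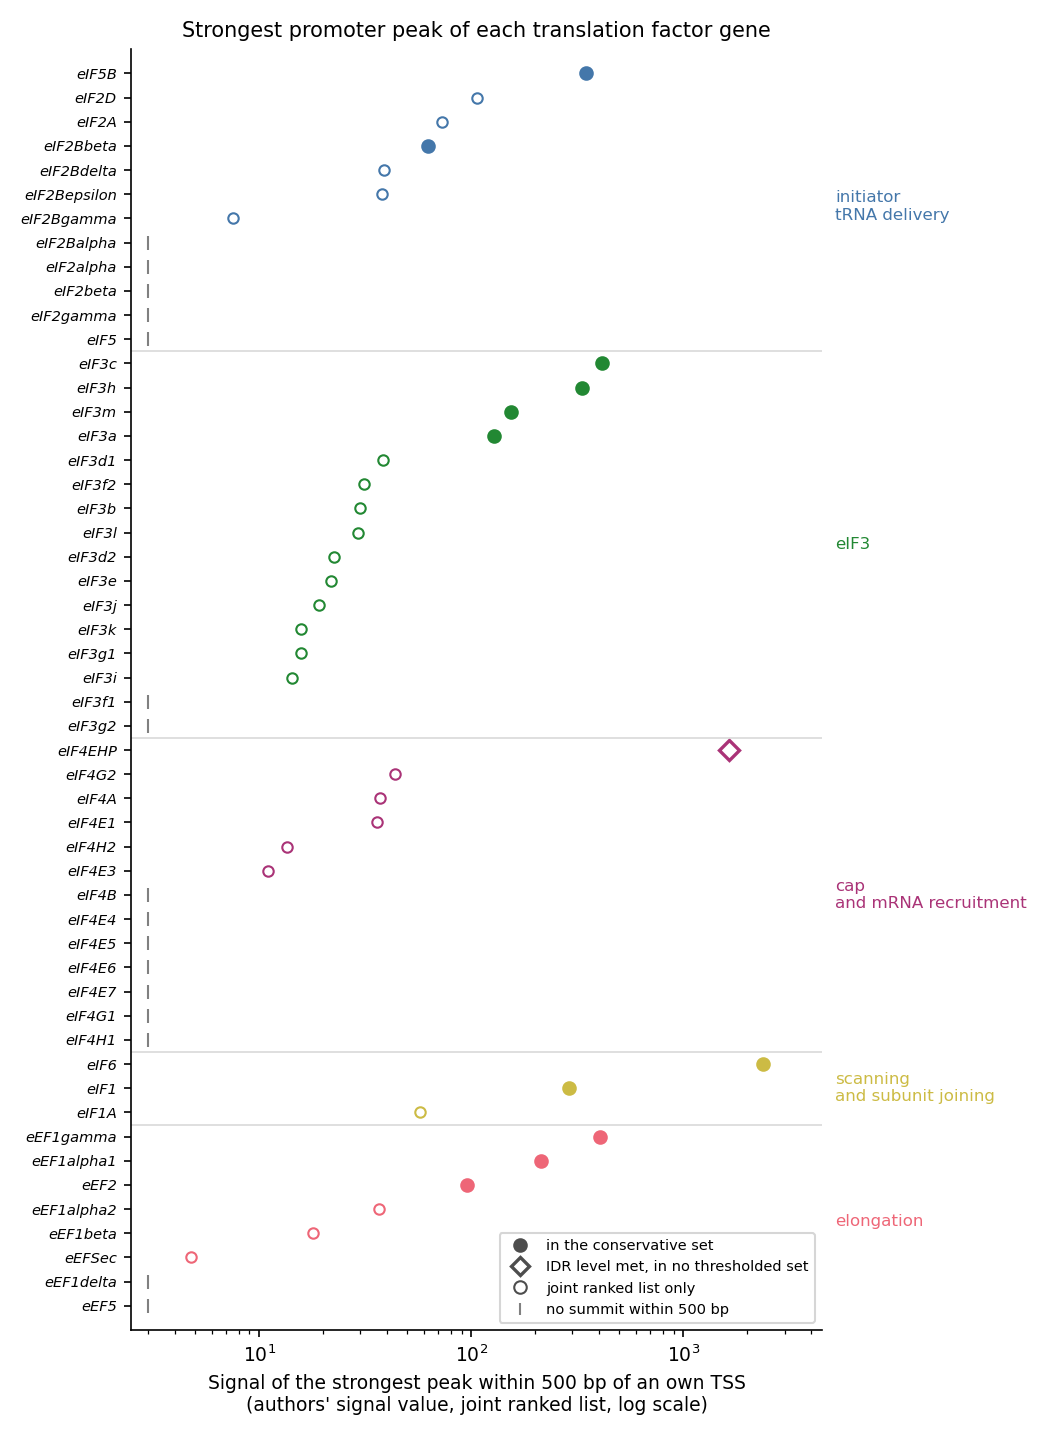
Signal of the strongest peak of the joint ranked list with its summit within 500 bp of an own TSS (x axis, log scale) for each of the 52 genes (y axis), grouped and coloured by role, with filled circles for peaks in the conservative set and grey ticks at the left edge for genes with no such summit. The filled points run from 62.5 at eIF2Bbeta to 2365 at eIF6, the open circles from 4.80 to 107, and the eIF4EHP diamond lies at 1646.

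The 41 genes without a promoter summit differed in what the lower lists held. In the joint ranked list 25 of them had a summit within 500 bp of an own TSS, which with the 11 gives 36 of 52, 69.2%, against a background of 70.5% of all genes. Apart from eIF4EHP, the 24 had signals from 4.80 to 107 with a median of 29.5, and none passed the IDR level, the highest −log10 IDR being 1.21. A listed summit is thus as frequent at factor genes as at genes at large. The other 16 had none in that list, eEF5, eIF2gamma and eIF3f1 among them. In the replicates' ranked lists, 22 of the 41 had a peak in replicate 1, 25 in replicate 2 and 17 in both. Over all 52 genes the shares were 63.5% in replicate 1 and 69.2% in replicate 2, near the backgrounds of 66.7% and 69.2% of all genes.

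Several factor genes were called in replicate 2 and not in replicate 1. The replicate 1 set had a promoter summit at 8 of the 52 genes, 15.4%, against a background of 13.3% of all genes. The replicate 2 set had one at 16, 30.8%, against 22.6%. It added 6 genes to the conservative calls: eEF5, eIF2A, eIF2D, eIF2gamma, eIF3f1 and eIF4G2. It dropped 1, eIF2Bbeta. The wider joint set gave 14 genes, 26.9%, against 21.4% of all genes, adding eEF5, eIF2A, eIF2D and eIF2gamma and dropping eIF2Bbeta. In the joint ranked list eEF5 and eIF2gamma had no promoter summit, and the −log10 IDR was 0.16 at eIF2A and 0.20 at eIF2D. The wider joint set was thus not the part of that list above the IDR level, and the reason was not tested.

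eEF5, which helps the ribosome past difficult peptide bonds, had a signal of 98.9 in replicate 2, rank 2447, and no peak in the ranked list of replicate 1. eIF2gamma, the GTP-binding subunit of eIF2, had 65.8 in replicate 2, rank 3776, and none in replicate 1. Both were thus seen in a single replicate. eIF2D had 91.9, rank 2653, in replicate 2 and 19.3, rank 31883, in replicate 1. eIF2A had 57.7, rank 4305, in replicate 2 and 15.5, rank 48174, in replicate 1. The lower values for eIF2D and eIF2A were deep in the ranked list. eIF3f1 had 61.8, rank 4035, in replicate 2 and 44.7, rank 4383, in replicate 1, close in rank. The −log10 IDR of these peaks was 2.66 in replicate 2 but 0.08 in replicate 1. The joint ranked list had no summit at the eIF3f1 promoter. eIF4G2, a relative of the scaffold eIF4G, had 41.3, rank 5970, in replicate 2 and 15.5, rank 48127, in replicate 1.

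Outside the factor genes' own promoters, 19 further summits lay in the loci of 11 genes, 8 of which had no promoter summit. At the start sites of other genes lay 5 of the 19, at eIF2Bbeta, eIF2beta, eIF3d1, eIF3g1 and eIF2A, the last with a signal of 281 at CG32448. Introns of the factor gene held 11, in eIF5B, eIF4EHP and eIF4G2. eIF5B had 6 of these, with signals of 400.1, 203, 197, 85.3, 71.8 and 5.77, the first above its promoter summit. Those of 400.1, 197, 71.8 and 5.77 were nearer to the TSS of sty than to one of eIF5B. eIF4EHP had 4, with signals of 367, 98.0, 70.9 and 64.3, all nearer to the TSS of Syx1A. eIF4G2 had a summit with a signal of 104, as near to the TSS of CG33111 as to its own. The remaining 3 lay in the flanks of eEF1alpha1, eIF4E1 and eIF4H2, the latter pair with signals of 102 and 81.3. Each of the 3 was nearer to the TSS of another gene. Of the cap and mRNA recruitment genes, eIF4EHP, eIF4G2, eIF4E1 and eIF4H2 had a locus summit, 4 of 13. Both replicate sets held 12 of the 19. No share over all summits outside promoters was computed to set beside these counts, so they are description only.

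Start sites of many translation genes carry a TCT motif in place of the usual initiator, here counted as CTTT with its C within 5 bp of the TSS. It was found in 7 of the 52 genes, 13.5%, against 8.07% of all genes and 63.6% of ribosomal protein genes, by the same count. The 7 were eEF1alpha1, eEF2, eEF5, eIF3f1, eIF3i, eIF3m and eIF4A, the RNA helicase of cap-dependent initiation. Of the 11 genes with a promoter summit 3 had it, 27.3%, against 11.3% of all genes with a summit. Most of the factor genes thus lack the pattern that marks most ribosomal protein genes.

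The start sites of eEF2, eIF3f1 and eIF4A are shown for the motif, 15 bases before the TSS and 15 from it on, with CTTT in capitals, on the gene's strand of Release 6. They are chr2L:21682102-21682131 on the minus strand, chr3R:4714168-4714197 on the minus strand and chr2L:5981749-5981778 on the plus strand. In each the C of CTTT lay 4 bp downstream of the annotated TSS and not on it. A further eIF4A start site, not shown, had the C 4 bp upstream.
eEF2: gtcgctgcagcgcctcgctCTTTcctgtcg
eIF3f1: cccgcactatcgataggccCTTTtcttgca
eIF4A: cttttgcaagatggagcctCTTTtgcttgg

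Other genes of protein synthesis were counted for comparison. Ribosomal protein genes, taken by symbol, had a promoter summit in 50 of 88, 56.8% (46.4% to 66.7%). That interval lies above the one for the factor genes. A list of 25 other cytoplasmic translation genes had summits at 8, 32.0% (17.2% to 51.6%). The 8 were pAbp, the poly(A) binding protein, with a signal of 417, larp with 256 and 237, the release factor eRF1 with 215, HBS1 with 195 and pelo with 191, which act in ribosome rescue, the ribosome-bound scaffold Rack1 with 158, the recycling ATPase pix with 119.8, and Thor, the eIF4E-binding protein, with 96.6. Mitochondrial translation factors had summits at 0 of 9, which allows up to 29.9% by the Wilson interval. The intervals of both lists overlap that of the 52 factor genes.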

How the data were processed

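The deposited files were peak lists on the dm6 assembly, per the labels, for lmd-eGFP ChIP-seq with 2 biological replicates. No aligner, peak caller or depth is given in the sources used here, and control libraries were not analysed here. Each deposited peak has a score (830 to 1000 in the thresholded sets), a signal value from the authors' peak caller and a summit; the ranked lists add a score that is −log10 of the IDR. The joint sets were called by the authors on both replicates, the replicate sets on 1 each. From these, summits were set against start sites of annotation release 115 on the Release 6 genome, whose arm names match the files and whose arm lengths hold every position, with Python 3.11.15, pandas 2.3.3, numpy 2.4.6 and scipy 1.17.1. Overlap meant 1 bp or more, and intervals are Wilson at 95%. No test between groups was possible with 1 group. The joining step was tested on simulated summits. By rule, every factor gene with a conservative promoter summit is named with its values and the others by role group, with up to 12 other translation genes that had one. Genes named for locus summits, for a change between sets or for CTTT, and eIF4EHP, were chosen after their values were seen. The members and lists were chosen with earlier results of these data known. Of 26 symbols of other translation genes 25 matched. Other alternatives were other windows, sets and replicates.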

Additional observations from a re-analysis of the deposited data

Results flagged for a closer look

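The peak 250 bp upstream of the eIF4EHP TSS had a signal of 1646 in the joint ranked list, rank 47, and stood in none of the 4 thresholded sets. It was looked at again because it is a strong signal in a list that the counts of bound genes do not use. Control libraries were not analysed here. The deposited listing names a further source file for the thresholded sets, with no role given, and its part in the absence of the peak was not tested.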

How the results depend on the processing

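Of 57 alternatives computed over 6 results, 46 stayed within 1.5 times the value given and 11 moved further. The 11 genes with a promoter summit became 8 to 16 when either replicate was left out, and the genes with a locus summit 15 to 25. Summits shared with another gene then ranged over 4 to 6. Summits in both sets were then 8 to 9, but they came from 1 replicate's set, so overlap with that set was fixed in advance. With both replicates, the 9 became 6 at a reciprocal overlap of 50% and 8 with summits within 100 bp. They became 7 at a window of 250 bp, 10 at 1000 bp and 7 with the 5′ end of the gene only. Genes with a summit in the locus fell from 19 to 7 without the flanks. The median signal of promoter summits, 252, was 154 in the wider joint set and 101 to 115 when either replicate was left out; signals of different lists differ in scale, and the lists hold different numbers of peaks. The 5 summits shared with another gene became 1 at a window of 250 bp, 10 at 1000 bp and 3 where the nearest TSS had to be the factor gene's own. The 3 summits with the DRE word became 5 in the wider set, 3 to 6 when either replicate was left out, 1 with the nearest TSS own, and 7 within 250 bp. Counting joint ranked peaks at the IDR level, chosen after seeing the data, gave 12 genes with a promoter summit. No paired analysis was possible because there was 1 group. Depth is unknown, so a gene without a summit is not shown to be unbound, and counts of 12 summits or fewer leave wide intervals.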
